A study of Brassica rapa subsp. chinensis with 24 samples.

Results

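The change of the root transcriptome with plant age was followed in untreated plants of Choy-sum, which is a leafy crop of the species Brassica rapa (subsp. chinensis). Whole roots of untreated plants of day 18 were set against whole roots of untreated plants of day 8, with 3 libraries in each group, so 6 of the 24 libraries of the study were compared. The spread was estimated from all 12 root libraries. All plants were wild type and grew in pots of peat-moss soil. Day 18 was a mature stage before flowering, and day 8 was the stage of the first true leaves. Seeds of the untreated groups had been soaked in magnesium sulfate. The other groups used here were roots of day 18 and day 8 from seeds dressed with SAB, a mixture of 3 bacteria from the genera Streptomyces, Agromyces and Bacillus, and untreated leaves of day 18 and day 8. The labels describe the 3 libraries of each group as independent biological replicates, but do not say how many plants went into each.

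A young root consists largely of growing tips, root hairs and newly differentiated tissue, and is the organ that takes up water and minerals. As the plant matures, lateral roots are added and older parts become differentiated, thickened or suberised, so that a whole root system holds a changing mixture of tissues. In whole roots, fewer cells of a type and less RNA per cell cannot be told apart.

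The deposited values were estimated counts, given in 66566 rows that carry 20564 distinct locus identifiers. Of these identifiers, 6113 had 1 row and 14451 had 2 or more, with a maximum of 274. Counts were summed per identifier before testing. Whether the rows of 1 identifier are transcripts or separate genes is not given in the files. The files do not pair the identifiers with gene names, and 0 of them matched the 51589 genes of the available RefSeq gene table, so no name or role is given to any identifier here. Results are described by counts of identifiers and by the levels of a few of them. Library totals ranged from 32224026 to 34651003 in the untreated day 18 roots and from 34127373 to 37471790 in the untreated day 8 roots. Between 93.9% and 94.9% of the identifiers were above 0 in each of these 6 libraries.

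The labels of tissue were checked with identifiers enriched in root or in leaf, defined in the SAB libraries alone (at least 4-fold between the tissues, both days averaged). Root-enriched identifiers took 11.3% to 13.5% of the counts of the 6 untreated root libraries and 0.515% to 0.705% of those of the untreated leaf libraries. Leaf-enriched identifiers took 2.80% to 3.48% in the roots and 51.0% to 56.9% in the leaves. No root library lay near the leaves in either share.

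One day 8 library stood apart from its group. The mean Spearman correlation of replicate 3 with the other day 8 roots was 0.958, against 0.973 and 0.974 for replicates 1 and 2, while the day 18 roots lay between 0.971 and 0.974. In day 8 replicate 3, 1017 identifiers lay at least 2-fold below both other libraries of the group and 375 at least 2-fold above. The median SD of log2(CPM + 1) over 17224 identifiers (CPM, counts scaled to a library of 1e6; those with a mean of at least 1 CPM) was 0.177 in the day 18 roots and 0.247 in the day 8 roots. Without replicate 3 the day 8 value was 0.0876. The counts of calls are therefore given with and without this library.

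With age, about as many identifiers rose as fell. Of 18973 identifiers tested in the root, 1560 (8.22%) were higher and 1566 (8.25%) were lower at day 18 than at day 8 (quasi-likelihood test of edgeR, with a Benjamini-Hochberg adjusted p under 0.05), together 16.5% of those tested. With the spread estimated from the 6 untreated root libraries alone, 672 were higher and 741 lower, and 43.4% of the calls were made again. The median log2 fold over all tested identifiers was 0.01. Most changes were moderate. Among those that rose, 703 changed at least 2-fold, 160 at least 4-fold, 65 at least 8-fold and 35 at least 16-fold. Among those that fell, the same counts were 672, 175, 74 and 46. The median log2 fold was 0.92 among the risers and -0.90 among the fallers. The smallest called change was 0.31 on the log2 scale among the risers and 0.28 in size among the fallers.

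The 3 day 18 values lay entirely above or below the 3 day 8 values for nearly all of these identifiers. This held for 1548 of the 1560 that rose and 1556 of the 1566 that fell. Over all tested identifiers, the day 18 roots lay wholly above in 17.1% and wholly below in 17.3%. Without day 8 replicate 3, 1608 identifiers were higher and 1455 lower. Of the 3126 calls, 2371 (75.8%) were made again without that library, and 0 turned to the opposite direction. The library with the largest influence on the count of risers was day 18 replicate 3, without which 1012 were higher and 980 lower. Without day 18 replicate 2, 947 were lower and 1092 higher.

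**Figure D1:**
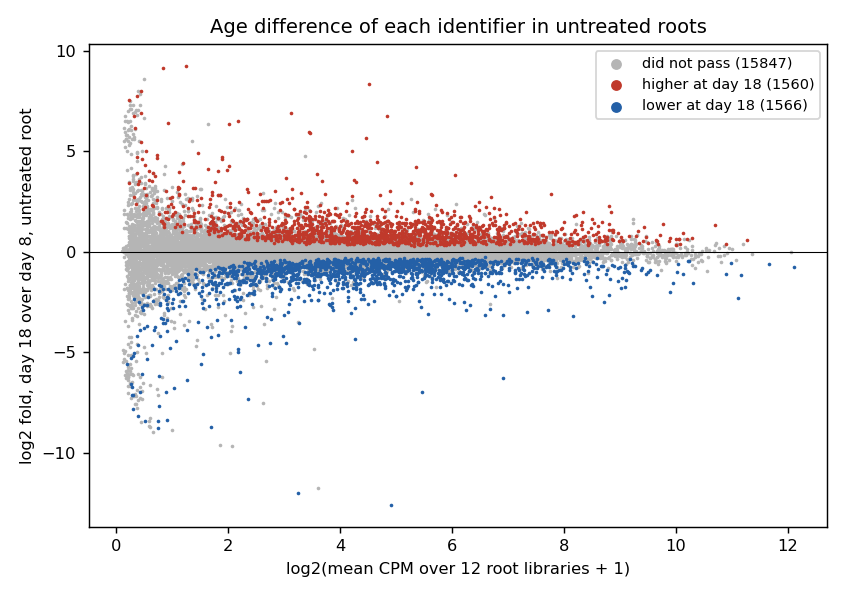
Each point is 1 of the 18973 tested identifiers, with its mean level over the 12 root libraries as log2(CPM + 1) on the x axis and the log2 fold of day 18 over day 8 in untreated roots on the y axis. The 1560 identifiers that rose and the 1566 that fell spread over the whole range of levels.

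Calls were made more often at higher levels. When the tested identifiers were divided into 4 bins of equal size by mean level, 4.76% of those in the lowest bin were higher and 5.54% lower. The shares were 7.76% and 9% in the next bin and 9.53% and 8.98% in the third. In the highest bin, 10.8% were higher and 9.49% lower, and the medians of all 4 bins lay between -0.01 and 0.03 on the log2 scale. Identifiers that rose had a median level of 30.8 CPM in the day 18 roots, and those that fell had a median of 27.7 CPM in the day 8 roots.

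Some called identifiers were at 0 in every library of 1 age. Of the risers, 8 were at 0 in all 3 day 8 roots, and of the fallers, 16 were at 0 in all 3 day 18 roots. The level of 3 reads, which is the limit that a count of 0 allows per library, was estimated at 1.42 CPM in the day 18 roots and 1.32 CPM in the day 8 roots. In the higher group, 6 of those 8 and 12 of those 16 had a mean under that limit, so no fold is given for them. With the others set to that limit, the median log2 fold was 0.91 among the risers and -0.90 among the fallers.

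The identifiers with the largest fitted log2 folds, among those with at least 10 CPM at 1 age and groups that did not overlap, are given as levels in each library. The fitted folds rest on values under the level of 3 reads, and with such values set to that level the order of the identifiers differs. By that limit AT1G34047 fell at least 110-fold and AT5G60770 rose at least 35.7-fold in untreated roots. These limits exceed those of the untreated falls and rises printed here. AT1G21890 had 80.3, 20.8 and 22.6 CPM in the day 18 roots, against 0, 0.0538 and 0.321 CPM in the day 8 roots. The groups did not overlap, and replicate 1 lay far above the other day 18 libraries. Its log2 fold was 8.34 (SE 1.04, edgeR adjusted p = 0.00075). Because all 3 day 8 values lay under the level of 3 reads, the change is given as a limit, the day 18 mean over that level. By this limit it was at least 31.3-fold higher at day 18, with a mean that replicate 1 raised. The call was lost with limma-voom (adjusted p = 0.0764). Over the 14 alternatives its adjusted p lay between 2.11e-11 and 0.0764.

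AT1G12940 had 59.8, 35.7 and 36.4 CPM in the day 18 roots, against 0.145, 0.43 and 0.613 CPM in the day 8 roots. Its day 18 values were all far above the day 8 values, and it was at least 33.3-fold higher at day 18 by the same limit. The fitted log2 fold was 6.78 (SE 0.44, edgeR adjusted p = 6.27e-05), and the call held in all 14 alternatives.

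AT2G31085 had 0.158, 0.057 and 0 CPM in the day 18 roots, against 10.1, 12.3 and 13.3 CPM in the day 8 roots. By the day 8 mean it was at least 8.40-fold lower at day 18, with the 3 day 8 values close together. Its fitted log2 fold was -7.31 (SE 0.56, edgeR adjusted p = 7.34e-05), and the call held in all 14 alternatives.

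AT4G01895 was at 0 CPM in all 3 day 18 roots, against 33.6, 20.8 and 14.5 CPM in the day 8 roots. By the day 8 mean it was at least 16.2-fold lower at day 18 (edgeR adjusted p = 0.0273). This call was less stable than the others and was lost in 7 of 14 alternatives, among them limma-voom and the omission of any 1 day 18 library. Over these alternatives its adjusted p lay between 1.67e-06 and 0.678.

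Identifiers typical of the root, as defined in the SAB libraries, fell more often than they rose. Of 2537 root-enriched identifiers, 256 (10.1%) were higher and 406 (16.0%) lower at day 18, against 8.22% and 8.25% of all tested. Rises and falls were thus both called more often than over all tested, the falls more so. The median log2 fold of the root-enriched identifiers was -0.15, against 0.01 over all tested. Those at least 16-fold enriched in root numbered 1468, of which 152 (10.4%) were higher and 290 (19.8%) lower, with a median of -0.25. Among 13727 identifiers enriched in neither tissue, 1118 (8.14%) were higher and 991 (7.22%) lower, with a median of 0.02. Without day 8 replicate 3, 225 of the root-enriched identifiers were higher and 359 lower, with a median of -0.12.

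The share of all counts that fell on root-enriched identifiers moved the same way. It was 12.4%, 11.6% and 11.3% in the day 18 roots, against 13.5%, 13.5% and 13.1% in the day 8 roots. All 3 day 18 values lay below all 3 day 8 values. The means were 11.8% ± 0.569 and 13.4% ± 0.230 (SD, n = 3 each), a difference of -1.59 percentage points with an exact two-sided permutation p of 0.1, which is the smallest that 3 libraries against 3 can give. Without day 8 replicate 3 the difference was -1.72 percentage points.

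Leaf-enriched identifiers were called about as often as all tested ones. Of 2652, 2217 passed the filter on low counts in the root, and 179 (8.07%) of these were higher and 154 (6.95%) lower, against 8.22% and 8.25% of all tested. Their median log2 fold was 0.06. The balance depended on the day 18 libraries, with 145 higher and 79 lower without replicate 2 and 112 higher and 122 lower without replicate 3. With a 2-fold minimum, 120 were higher and 75 lower. Their share of the counts was 2.96%, 2.95% and 3.48% in the day 18 roots, against 2.90%, 2.94% and 2.80% in the day 8 roots. The means of 3.13% ± 0.301 and 2.88% ± 0.0731 (SD, n = 3 each) differed by 0.251 percentage points (exact two-sided permutation p = 0.1). Most of this difference lay in 1 library. Without day 18 replicate 3 it was 0.0776 percentage points, and the median log2 fold of the leaf-enriched identifiers was -0.05 in place of 0.06. In day 18 replicate 3, 338 identifiers lay at least 2-fold above both other day 18 roots, of which 155 were leaf-enriched, against 23 of 307 in replicate 1 and 16 of 206 in replicate 2. The part of leaf RNA in that library in these results was not tested.

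**Figure D2:**
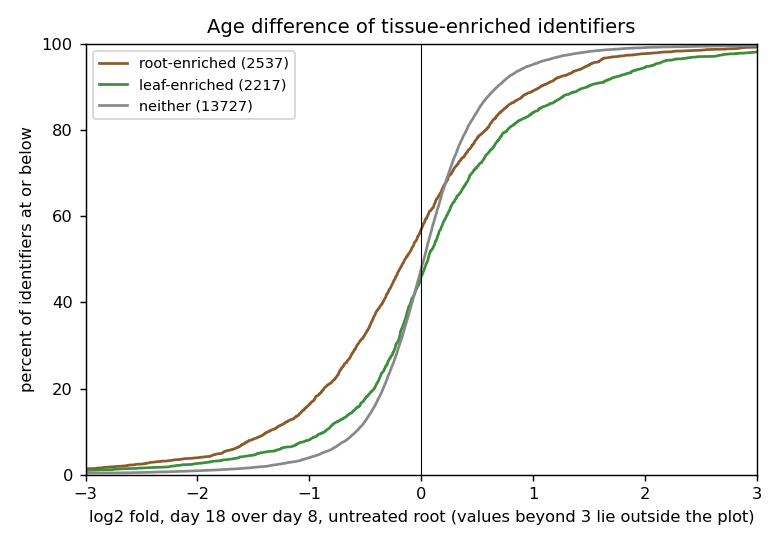
Cumulative share of identifiers, in percent, by their log2 fold of day 18 over day 8 in untreated roots, for root-enriched, leaf-enriched and other identifiers, with enrichment defined in SAB libraries. The curve of the 2537 root-enriched identifiers lies to the left of the curve of the 13727 others at negative log2 folds, with medians of -0.15 and 0.02.

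The part of the counts taken by the most abundant identifiers depended on 1 day 8 library. The 10 largest of each library held 2.74% ± 0.0827 of the counts in the day 18 roots and 3.45% ± 0.412 in the day 8 roots (SD, n = 3 each, exact two-sided permutation p = 0.1). The 100 largest held 14.1% ± 0.152 in the day 18 roots and 15.8% ± 1.84 in the day 8 roots (exact permutation p = 0.1). For the 1000 largest, the shares of 48.5% ± 0.761 and 50.0% ± 2.94 overlapped (exact permutation p = 0.7). Day 8 replicate 3 had the highest share in each case. Without it, the day 18 minus day 8 difference was -0.484 percentage points for the 10 largest, -0.642 for the 100 largest and 0.242 for the 1000 largest.

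The same ages were also sampled in roots of SAB plants, which share no library with the untreated comparison. There, 2910 identifiers (15.3%) were higher and 2299 (12.1%) lower at day 18 by edgeR's adjusted p, together 27.5%. With the spread estimated from the 6 SAB root libraries alone, 3424 of 18302 were higher and 2911 lower. Of the 1560 identifiers that rose in untreated roots, 1176 also rose in SAB roots, which is 75.4% of the untreated and 40.4% of the SAB risers, and 8 fell. Of the 1566 that fell in untreated roots, 1064 also fell in SAB roots, 67.9% of the untreated and 46.3% of the SAB fallers, and 9 rose.

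Direction was shared more widely than calls. The log2 fold in SAB roots had the sign of the untreated change in 1490 (95.5%) of the untreated risers and 1483 (94.7%) of the fallers, where 48.2% of all tested identifiers had a positive log2 fold in SAB roots. The median log2 fold of these identifiers in SAB roots was 0.94 for the risers and -0.80 for the fallers. Across the 18973 identifiers, which are not independent, the 2 sets of log2 folds had a Pearson correlation of 0.480 and a Spearman correlation of 0.589.

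Of the 4 identifiers given above, 3 moved the same way in SAB roots. AT1G21890 had 46.8, 66.0 and 24 CPM in SAB roots of day 18, against 0.0905, 0.276 and 0.908 CPM in SAB roots of day 8 (log2 fold 6.68). AT1G12940 had 65.4, 66.0 and 63.5 CPM at day 18, against 0.935, 1.99 and 1.84 CPM at day 8 (log2 fold 5.34). Neither difference between the treatments passed for these risers (edgeR adjusted p = 0.647 and 0.261). AT2G31085 had 0.233, 0.404 and 0.439 CPM in SAB roots of day 18, against 5.13, 3.54 and 4.17 CPM in SAB roots of day 8. It was higher at day 8 than at day 18 in both treatments, but as the day 18 values of both lay under the level of 3 reads, the sizes of the falls could not be compared.

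AT4G01895 was split in the SAB roots. It was at 0 CPM in replicate 1 of day 18 and at 123 and 122 CPM in replicates 2 and 3, against 12.2, 10.9 and 12.8 CPM in SAB roots of day 8. Replicates of 1 group thus ranged from 0 to more than the level of every day 8 root.

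**Figure D3:**
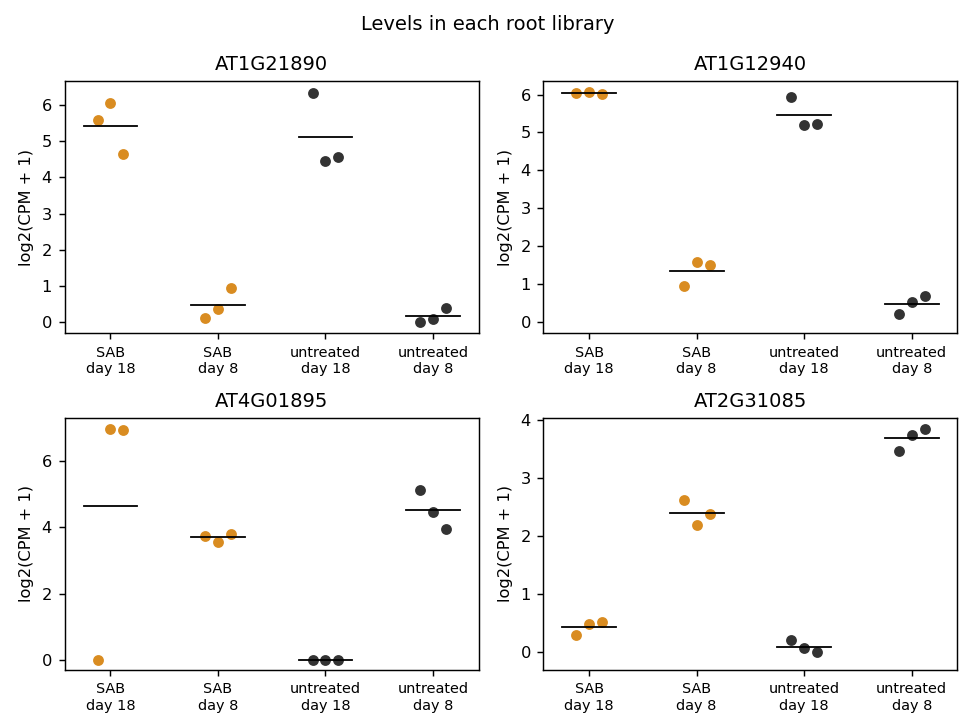
Levels of AT1G21890, AT1G12940, AT4G01895 and AT2G31085 as log2(CPM + 1) in the 12 root libraries, with SAB roots on the left and untreated roots on the right of each panel. Points are libraries and lines are group means (n = 3). The first pair is higher at day 18 in both treatments, while AT4G01895 is at 0 in all 3 untreated day 18 roots and in 1 of 3 SAB day 18 roots.

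The difference between the 2 age changes was tested directly, SAB minus untreated. It was positive in 156 identifiers (0.822%) and negative in 47 (0.248%), 1.07% of those tested (edgeR adjusted p under 0.05). Of the 156, 121 rose in SAB roots and did not pass in untreated roots, 19 rose in both and 2 fell in both. A further 9 rose in SAB and fell in untreated roots, and 5 fell in untreated roots and did not pass in SAB roots. Of the 47, 21 fell in SAB roots and did not pass in untreated roots, 7 fell in both and 2 rose in both. Another 9 rose in untreated roots and did not pass in SAB roots, and 8 fell in SAB and rose in untreated roots.

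These counts depended on single libraries. Leaving out 1 library at a time gave between 5 and 424 positive and between 5 and 124 negative differences. Without day 8 replicate 3 of the untreated roots there were 166 and 65. The excess of positive differences was not kept without untreated day 18 replicate 1 (16 positive, 18 negative) or replicate 2 (9 and 13). Without SAB day 8 replicate 1 there were 5 and 5. The 2 identifiers with the smallest p in each direction, chosen after their values were seen, kept their call in all 18 alternatives.

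AT1G11840 changed in opposite directions. It had 314, 378 and 307 CPM in SAB roots of day 18, against 49.5, 106 and 63.6 CPM in SAB roots of day 8. In untreated roots it had 1.01, 1.34 and 0.44 CPM at day 18, against 90.8, 30.0 and 96.3 CPM at day 8. It thus rose in SAB roots (log2 fold 2.19) and fell in untreated roots (log2 fold -6.27), a fitted difference of 8.46 (SE 0.72, edgeR adjusted p = 0.00217). By the day 8 mean over the level of 3 reads, it was at least 51.1-fold lower at day 18 in untreated roots. Day 8 replicate 2, at 30.0 CPM, lay well below replicates 1 and 3.

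AT4G12480 also moved both ways, at lower levels. It had 9.64, 8.23 and 15.8 CPM in SAB roots of day 18, against 1.42, 1.8 and 1.72 CPM in SAB roots of day 8. In untreated roots it had 4.17, 4.47 and 3.33 CPM at day 18, against 11.1, 8.74 and 12.6 CPM at day 8. The groups of each pair did not overlap, and the difference of the log2 folds was 4.21 (SE 0.37, edgeR adjusted p = 0.00217). The untreated fall alone was lost in 1 of 14 alternatives, the fit of all 24 libraries, with adjusted p between 8.22e-06 and 0.0978.

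The other pair fell in SAB roots. AT5G10210 had 3.74, 4.97 and 4.76 CPM in SAB roots of day 18, against 75.5, 82.7 and 86.3 CPM in SAB roots of day 8. In untreated roots it had 43.4, 49.0 and 45.7 CPM at day 18, against 67.6, 79.7 and 128 CPM at day 8. It was lower at day 18 in both treatments, with log2 folds of -4.18 in SAB and -0.99 in untreated roots, and the difference was -3.19 (SE 0.30, edgeR adjusted p = 0.00269). The untreated change alone was less stable and was lost in 3 of 14 alternatives, among them the fits of the 6 untreated root libraries and of all 24 libraries, with adjusted p between 9.34e-05 and 0.138.

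AT1G66140 had 34.8, 33.6 and 32.0 CPM in SAB roots of day 18, against 75.1, 77.4 and 75.6 CPM in SAB roots of day 8. In untreated roots it had 67.4, 68.9 and 59.4 CPM at day 18, against 51.1, 52.8 and 58.7 CPM at day 8. The change in untreated roots did not pass (log2 fold 0.27, edgeR adjusted p = 0.088) but did without day 8 replicate 3. The difference was -1.45 (SE 0.14, edgeR adjusted p = 0.00269).

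**Figure D4:**
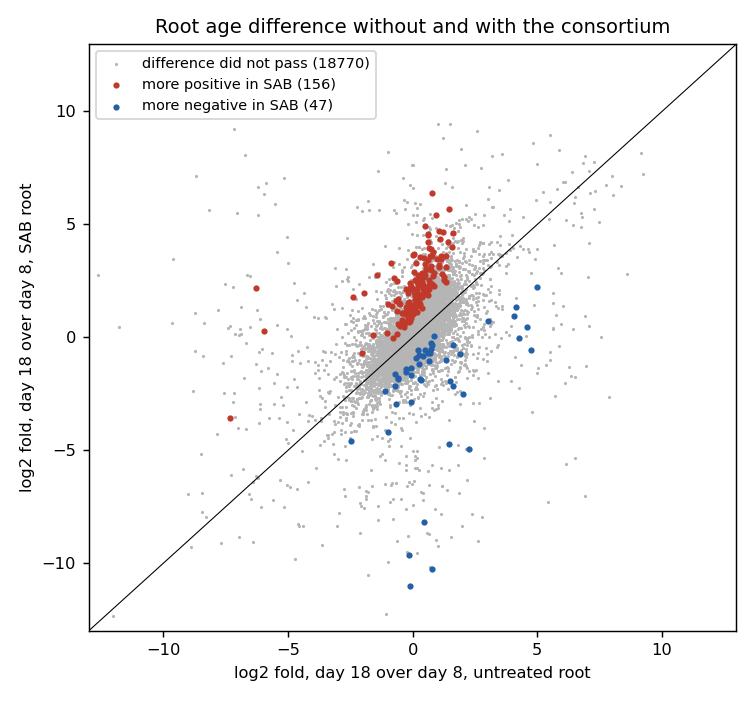
The log2 fold of day 18 over day 8 in SAB roots (y axis) against the same in untreated roots (x axis), for 18973 identifiers, with the line of equal folds. Identifiers whose difference passed are coloured, 156 with a more positive and 47 with a more negative fold in SAB roots.

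Root and leaf of the untreated plants were compared in 1 fit of all 24 libraries, in which 1535 of 19681 identifiers (7.80%) rose and 1767 (8.98%) fell in the root, 16.8% in all. In the leaf, 3393 (17.2%) rose and 3649 (18.5%) fell, 35.8% in all. Of the root risers, 745 also rose in the leaf (48.5% of the root and 22.0% of the leaf risers) and 98 fell there. Of the root fallers, 641 also fell in the leaf (36.3% of the root and 17.57% of the leaf fallers) and 187 rose there. Across the 19681 identifiers the Pearson correlation of the log2 folds was 0.223 and the Spearman correlation 0.258.

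The age change itself differed between the tissues in 4162 identifiers (21.1%), being more positive in the root in 2120 (10.8%) and more negative in 2042 (10.4%). The fit treated root and leaf libraries as independent, although same-numbered ones of day 18 deviated together, as given below. Most of the 4162 passed in the leaf and not in the root, which does not show that the root was unchanged. Of the 2120, 1571 fell in the leaf and did not pass in the root, while 219 rose in the root and did not pass in the leaf, and 98 rose in the root and fell in the leaf. Of the 2042, 1215 rose in the leaf and did not pass in the root, 360 fell in the root and did not pass in the leaf, and 187 fell in the root and rose in the leaf.

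Both risers of the untreated root described first were low in leaves. AT1G21890 had 0.0808, 1.97 and 0.0462 CPM in leaves of day 18, against 1.62, 0.0381 and 1.24 CPM in leaves of day 8, with overlapping groups. Its mean in leaves was under 1 CPM at either age. AT1G12940 had 1.17, 1.38 and 0.0923 CPM in leaves of day 18, against 0.0505, 0.114 and 0.566 CPM in leaves of day 8. At levels this low, no size of the leaf changes of this pair could be set against the root changes. Of the fallers described above, AT2G31085 was at 0 CPM in all untreated leaves. AT4G01895 was at 0 CPM in all 3 leaves of day 18, against 28.7, 25.8 and 2.38 CPM in leaves of day 8. AT1G11840 had 1.78, 1.38 and 0.831 CPM in leaves of day 18, against 4.90, 13.0 and 41.2 CPM at day 8 (edgeR adjusted p = 0.00273). AT4G01895 and AT1G11840 were thus lower at day 18 in the leaf as well. In the untreated day 18 roots both were at 0 or under the level of 3 reads. Zeros of day 18 were shared between same-numbered root and leaf libraries, as given below. Whether these 2 falls come from the plants or from the estimation of the counts was not tested.

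The following identifiers had the smallest p for the difference between the tissues among those whose own root change passed and had the sign of that difference, and were chosen after their values were seen. AT5G19260 had 169, 117 and 150 CPM in roots of day 18, against 9.38, 8.82 and 12.9 CPM in roots of day 8. In leaves it had 19, 21 and 17.3 CPM at day 18, against 36.6, 36.1 and 36.2 CPM at day 8. It rose in the root (log2 fold 3.81) and fell in the leaf (log2 fold -0.93), and neither pair of groups overlapped. The difference, root minus leaf, was 4.69 (SE 0.26, edgeR adjusted p = 1.97e-09).

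AT1G65960 had 121, 107 and 127 CPM in roots of day 18, against 54.4, 61.0 and 48.4 CPM in roots of day 8. In leaves it had 37.8, 23.7 and 38.5 CPM at day 18, against 233, 176 and 170 CPM at day 8. The root levels were higher and the leaf levels lower at day 18, and the difference, root minus leaf, was 3.61 (SE 0.25, edgeR adjusted p = 1.04e-08).

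AT3G18000 had 414, 450 and 418 CPM in roots of day 18, against 834, 754 and 975 CPM in roots of day 8. In leaves it had 793, 684 and 610 CPM at day 18, against 108, 96.1 and 94.1 CPM at day 8. It fell in the root (log2 fold -0.999) and rose in the leaf (log2 fold 2.81), with a difference of -3.85 (SE 0.22, edgeR adjusted p = 2.59e-09).

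AT3G53420 had 335, 356 and 242 CPM in roots of day 18, against 529, 568 and 420 CPM in roots of day 8. In leaves it had 283, 340 and 390 CPM at day 18, against 29.2, 28.5 and 22.9 CPM at day 8. The leaf change was the larger (log2 fold 3.65), and the difference, root minus leaf, was -4.39 (SE 0.28, edgeR adjusted p = 3.92e-09). Its root change (log2 fold -0.70, edgeR adjusted p = 0.0457) was lost in 7 of 14 alternatives, with adjusted p between 0.00924 and 0.142.

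The sum over the rows of an identifier can hide changes of single rows. When the 52257 rows that passed the filter were tested as deposited, 1158 (2.22%) were higher and 1718 (3.29%) lower at day 18, 5.50% in all. Of 2012 called identifiers with 2 or more tested rows, 1173 had a row called in the same direction, 241 had at least 2 such rows and 19 had a row called in the opposite direction. A further 733 identifiers had a called row while their sum was not called, and 38 had rows called in both directions, of which 22 had a sum that did not pass. AT1G11840 is an example of a sum carried by 1 of 2 rows, which had 0.185, 0 and 0 CPM in the day 18 roots, against 90.2, 29.5 and 105 CPM in the day 8 roots. The other row averaged 0.846 CPM at day 18 and 0.670 CPM at day 8, under the level of 3 reads at both ages.

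Rows that were present at 1 age and at 0 at the other were unevenly divided. Only 11 rows reached the level of 3 reads in all 3 day 18 roots and were at 0 in all 3 day 8 roots, whereas 175 rows, of 167 identifiers, showed the reverse. Of the 175, 18 were also above 0 in all SAB day 8 roots and at 0 in all SAB day 18 roots, and 55 showed the same pattern in untreated leaves. The uneven division was also present in the other groups, with 23 and 200 rows in SAB roots and 33 and 100 rows in untreated leaves. Without day 8 replicate 3, the counts in untreated roots were 22 and 322.

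Values of 0 were unequally spread over the libraries. Of 29283 rows that reached the level of 3 reads in all 3 day 8 roots, 855, 891 and 880 were at 0 in day 18 replicates 1, 2 and 3. Of 29731 rows that reached it in all 3 day 18 roots, 72, 53 and 731 were at 0 in day 8 replicates 1, 2 and 3. The day 18 roots and day 8 replicate 3 thus had many such zeros, and day 8 replicates 1 and 2 few.

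At day 18 the zeros were shared between root and leaf libraries that carry the same replicate number. Of 21314 rows above the limit in all roots and leaves of day 8, 277, 294 and 265 were at 0 in day 18 root replicates 1, 2 and 3. Of these, 88.1%, 87.4% and 86.0% were also at 0 in the day 18 leaf of the same number, and 33.3% to 38.4% in leaves of another number, where 1.46% to 1.62% of all such rows were at 0. At day 8, 413 rows were at 0 in root replicate 3, and 3.39% of these were at 0 in leaf replicate 3. Only 21 and 12 rows were at 0 in day 8 root replicates 1 and 2. Of these, 33.3% and 58.3% were at 0 in the day 8 leaf of the same number, against 23.8% and 33.3% in leaves of another number. The same-numbered libraries of day 18 also deviated together from their group means, with Pearson correlations across identifiers of 0.465, 0.469 and 0.399, against -0.265 to -0.166 for other pairs. At day 8 the same-numbered correlations were 0.006, 0.165 and 0.029, against -0.090 to 0.051 for other pairs. Whether these zeros come from the plants or from the estimation of the counts was not tested.

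**Figure D5:**
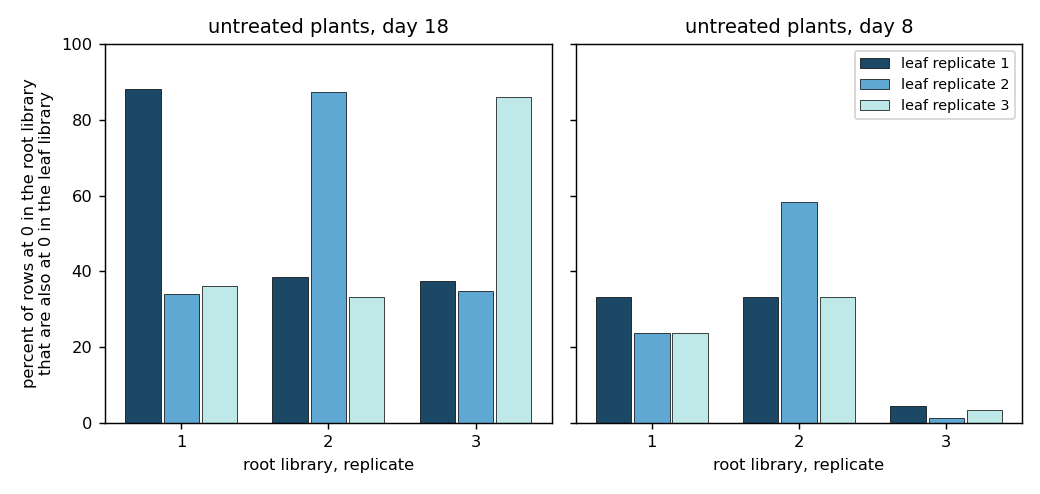
Percent of the rows at 0 in an untreated root library that are also at 0 in each untreated leaf library of the same day, by root replicate (x axis) and leaf replicate (bar shade), among rows above the level of 3 reads in all roots and leaves of the other day. At day 18 the bar of the same number reaches 86.0% to 88.1%, while at day 8 root replicate 3 has no bar above 4.36%.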

How the data were processed

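Polyadenylated RNA was sequenced as paired-end reads, per the labels' protocols. The deposited table holds estimated counts; the submitters' processing notes name Trim Galore, Bowtie2 and kallisto without versions or roles, and the index and annotation are not given in these sources. The estimated counts, which need not be whole, were summed per identifier and rounded. Differences were tested with edgeR 4.0.16 (R 4.3.3; TMM scaling, filterByExpr with a minimum count of 10 and total of 15, robust quasi-likelihood fit by group, Benjamini-Hochberg adjusted p under 0.05), on the 12 root libraries or, for root against leaf, all 24. Untreated and SAB comparisons thus share 1 estimate of spread. An edgeR p-value sets a difference against the spread between libraries within groups, pooled over all groups of the fit, not that of the compared groups alone. The groups differed in spread. The median SD of log2(CPM + 1) was 0.177 and 0.247 in untreated day 18 and day 8 roots. In SAB roots of day 18 and day 8 it was 0.191 and 0.103. Shares of counts were compared by exact two-sided permutation over libraries.

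Low estimated counts of a row partly fell on multiples of 1 step: in 5573 low rows, 58.0% of values were whole multiples to within 0.1 step, and 41.6% were so once each value had been scaled at random. The 95th percentile of the step, 15.5, times 3 gave the limit for a value of 0; it covers counting error only. The precision that library totals of 28068078 to 37999455 give at low levels is limited accordingly.

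The members and lists were chosen with earlier results of these data known. Planned gene lists by function were not used, because the files do not pair the identifiers with names. For the same reason only 2 identifiers per direction and comparison are printed. They have the largest fitted log2 folds among called identifiers whose groups do not overlap and that average 10 CPM or more at 1 age. For differences between treatments or tissues they have the smallest p. A planned share of green-tissue markers was replaced by shares of tissue-enriched identifiers (at least 4-fold, adjusted p under 0.05, in SAB libraries). Alternatives used limma 3.58.1 (voom), DESeq2 1.42.0, RLE scaling, no filter, rows as deposited, a replicate block, fewer or more libraries and a 2-fold minimum. The scripts were tested on simulated data.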

Additional observations from a re-analysis of the deposited data

Results flagged for a closer look

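The age change of several identifiers differed between treatments or tissues by a test of the difference itself (edgeR adjusted p under 0.05). Between SAB and untreated roots, the fitted difference of the log2 folds of day 18 over day 8 was 8.46 for AT1G11840, 4.21 for AT4G12480, -1.45 for AT1G66140 and -3.19 for AT5G10210. For AT1G11840 the untreated day 18 values lay under the level of 3 reads. The size, unlike the opposite directions, thus rests on values too low to give a fold.

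Between untreated root and untreated leaf, the difference of the log2 folds was 4.69 for AT5G19260, 3.61 for AT1G65960, -3.85 for AT3G18000 and -4.39 for AT3G53420.

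A further 3 fitted differences passed but set 2 folds against each other that each rest on a group mean under the level of 3 reads, so they give neither a size nor an order. They were 3.75 for AT2G31085 (SAB minus untreated root, lost in 11 of 18 alternatives, adjusted p between 1.34e-05 and 0.117), 8.66 for AT1G21890 (root minus leaf, kept in 18 of 18 alternatives) and 4.93 for AT1G12940 (root minus leaf, lost in 1 of 18 alternatives, without day 8 leaf replicate 3). No explanation of these differences was tested.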

How the results depend on the processing

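For untreated roots, a 2-fold minimum left 703 risers and 672 fallers, the 6 untreated root libraries alone gave 672 and 741, and DESeq2 gave 2203 and 2254. Leaving out 1 library gave 1012 to 1608 risers and 947 to 1455 fallers. None of these alternatives called an identifier in the opposite direction. In SAB roots the 2-fold minimum left 1691 and 1014, and leaving out 1 library gave 2102 to 2827 and 1495 to 2229.

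For the difference SAB minus untreated (156 positive, 47 negative), DESeq2 gave 765 and 264, limma-voom 100 and 28, and rows as deposited 67 and 62. Leaving out 1 library gave 5 to 424 positive and 5 to 124 negative differences. For root minus leaf, a 2-fold minimum left 1453 positive and 1322 negative differences. There, leaving out 1 library gave 1711 to 2280 positive and 1667 to 2094 negative ones. In leaves the 2-fold minimum left 1704 risers and 1920 fallers, and leaving out 1 library gave 2771 to 3197 and 3057 to 3477. The cause of these shifts was not tested, except that the 2-fold minimum and smaller fits by construction keep fewer identifiers or libraries.

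Same-numbered day 18 and day 8 untreated roots did not deviate together (Pearson correlations of -0.16, 0.03 and -0.05). Pairs of unlike number gave -0.07 to 0.13. With 3 libraries per group, such values cannot decide whether the numbers stand for a shared batch, which was not tested. With the replicate block, 1268 risers and 1288 fallers were called in untreated roots, 5 positive and 3 negative differences between SAB and untreated, and 2094 and 1989 between root and leaf.

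Leaving out 1 library gave a difference in the share of counts of -1.90 to -1.35 percentage points for root-enriched and 0.0776 to 0.342 for leaf-enriched identifiers. Without the 10 largest identifiers in the total, the leaf-enriched share had an exact permutation p of 0.3. A count of 0 in a library allows a level of up to 1.42 CPM in day 18 roots or 1.32 CPM in day 8 roots. Values above 0 but under this limit are not thereby shown to be 0. AT1G34047, for example, had 1.17, 1.28 and 1.22 CPM in the untreated day 18 roots. Folds that rest on values under the limit remain uncertain in size.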
